A study of Mus musculus with 6 samples.

Results

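The genes that let a neuron make, load, recycle and degrade acetylcholine, together with genes of cranial motor neurons, were examined in RNA sequencing of whole mouse brainstems. The members were taken from the table by gene symbol, with no threshold on a measured value: Chat, Slc18a3, Slc5a7, Ache, Isl1, Mnx1, Prph, Tbx20, Calca and Calcb. Of these 10, 9 were found among the 18058 genes of the deposited table, and Mnx1 is not analysed here. Snap-frozen brainstems came from 3 wild type (WT, C57BL/6J) and 3 Rag1-/- mice, each an independent animal of 1 month of age. The Rag1-/- strain carries a germline disruption of Rag1 on a C57BL/6 background, so that the allele is present in every cell, and its mice have no mature T or B lymphocytes. The comparison asked which brainstem transcripts differ in mice that lack these lymphocytes.

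Acetylcholine is the transmitter of all motor neurons that leave the brainstem in the cranial nerves to move the eyes, jaw, face, throat and tongue, and of the preganglionic parasympathetic neurons. It is also made by the projection neurons of the pontine tegmentum and by interneurons. Choline is taken up at the terminal, acetylated in the cytosol, pumped into synaptic vesicles and, once released, hydrolysed in the cleft. Many motor neurons also carry calcitonin gene-related peptide (CGRP). Sensory ganglion neurons share several of these genes, including Isl1, Prph, Calca and Calcb, and Isl1 is also a gene of pituitary cells and of some forebrain neurons. In bulk tissue, fewer cells of a type and less RNA per cell cannot be told apart.

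Values are CPM, the authors' gene counts scaled to the size of each library. From the steps among low values, the depth was estimated at 31500000 to 46400000 reads per library, so that 3 reads, taken as the floor, correspond to 0.0647 to 0.0952 CPM, which covers counting error only. Rag1 transcripts were at 0.115 to 0.388 CPM in WT, against 2.60 to 4.02 CPM in the libraries labelled Rag1-/-, higher and not lower, and a gene-level value does not show which part of the gene was read, so the genotype is taken from the label alone and every direction given depends on it. Xist, which is transcribed from the inactive X chromosome of females, exceeded 100 CPM in the first and second WT library and stayed under 3 CPM in the other 4. Ddx3y, a gene of the Y chromosome, was at 0.283 and 0.215 CPM in those WT libraries and at 45.2 to 56.2 CPM in the other 4. Sex was thus unbalanced between the labels, and its part in any difference given cannot be told apart from that of the label. WT replicate 3 also stood apart in pituitary and cerebellar transcripts, which are given beside Isl1. The 9 members lie on chromosomes 5, 7, 9, 13, 14, 15 and 17, and none lies on chromosome 2 with Rag1.

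No difference between the genotypes was detected for any of the 9 members, from the enzymes and transporters of acetylcholine to the motor neuron transcription factors and CGRP genes. In limma-trend on log2(CPM + 0.1), 0 of 9 had an adjusted p under 0.05, where 0.0477% of the 16762 tested genes did (0.0119% higher and 0.0358% lower under the Rag1-/- label), and 0 of 9 had an unadjusted p of at most 0.05, where 11.6% of tested genes did. With ordinary per-gene variance in place of limma-trend, 0 of 9 had an unadjusted p of at most 0.05, where 10.6% of tested genes did. In that fit 0 of all tested genes had an adjusted p under 0.05, so its adjusted count says nothing about the members. In limma-trend, the smallest unadjusted p was 0.165, for Slc18a3, and the adjusted p values lay between 0.570 and 0.981. The range of WT libraries and the range of libraries labelled Rag1-/- overlapped for each of the 9 genes, and 18.4% of tested genes showed no overlap. An exact permutation test (two-sided, with 0.1 as the smallest p that 3 against 3 libraries allow) gave p from 0.3 for Calca to 0.9 for Tbx20. The fold change was above 0 for 7 members and below 0 for Ache and Isl1, with a median log2 fold change of 0.19 over the 9, beside -0.05 over all tested genes, of which 32.3% were above 0. These counts describe the list and were not tested as a set.

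**Figure D1:**
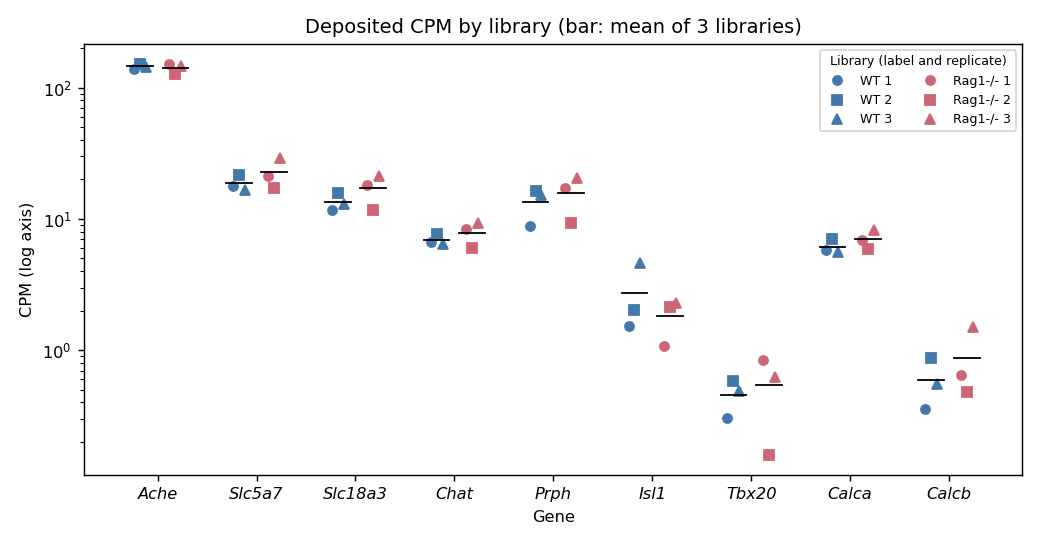
Deposited CPM (log axis) of the 9 genes in each of the 6 libraries, WT in blue and libraries labelled Rag1-/- in red, with the marker shape for the replicate number and a bar for the mean of 3 libraries. The colours overlap for every gene, Ache stands at 126 to 152 CPM above the others, and Tbx20 has the lowest value, at 0.159 CPM in replicate 2 labelled Rag1-/-.

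The core of cholinergic identity is a single genomic locus. Chat (chromosome 14, 32408203 to 32465909, minus strand, mm10) encodes choline acetyltransferase, which makes acetylcholine. Slc18a3 (chromosome 14, 32462437 to 32464850, minus strand) encodes the vesicular acetylcholine transporter and lies within intron 1 of Chat, on the same strand, with its start 1059 bases from the start of Chat. Their annotated exons share 0 bases and their transcripts have no identical run longer than 13 bases, although unspliced Chat RNA would cover Slc18a3. Slc5a7 (chromosome 17, 54273590 to 54299034, minus strand) encodes the high-affinity choline transporter of the terminal. By a distance across libraries that counts the size of deviations, given further on, Slc5a7 and Calca were the members closest to Chat, and Isl1 departed from them. For this reason the 250 bases before the RefSeq start are shown for Chat, Slc18a3, Slc5a7, Calca and Isl1. They are RefSeq sequences of GRCm38.p6, all on the minus strand and written 5′ to 3′, from chr14:32465910-32466159 for Chat, chr14:32464851-32465100 for Slc18a3, chr17:54299035-54299284 for Slc5a7, chr7:114636358-114636607 for Calca and chr13:116309689-116309938 for Isl1. Capitals mark TGACG, the core of the cAMP response element, on either strand.
Chat: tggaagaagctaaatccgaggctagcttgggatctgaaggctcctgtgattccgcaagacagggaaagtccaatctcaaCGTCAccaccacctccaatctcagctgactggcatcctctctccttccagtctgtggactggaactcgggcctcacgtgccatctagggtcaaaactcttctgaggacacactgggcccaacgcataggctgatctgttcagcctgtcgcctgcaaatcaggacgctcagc
Slc18a3: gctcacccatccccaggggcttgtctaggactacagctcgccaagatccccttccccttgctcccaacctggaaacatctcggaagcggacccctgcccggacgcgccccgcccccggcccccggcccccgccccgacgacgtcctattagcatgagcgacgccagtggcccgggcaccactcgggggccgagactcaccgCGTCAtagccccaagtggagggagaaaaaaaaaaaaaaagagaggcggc
Slc5a7: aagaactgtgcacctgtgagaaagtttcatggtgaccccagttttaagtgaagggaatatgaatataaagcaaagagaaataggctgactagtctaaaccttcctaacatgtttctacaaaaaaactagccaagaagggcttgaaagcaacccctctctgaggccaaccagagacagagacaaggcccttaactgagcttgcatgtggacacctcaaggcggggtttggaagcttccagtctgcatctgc
Calca: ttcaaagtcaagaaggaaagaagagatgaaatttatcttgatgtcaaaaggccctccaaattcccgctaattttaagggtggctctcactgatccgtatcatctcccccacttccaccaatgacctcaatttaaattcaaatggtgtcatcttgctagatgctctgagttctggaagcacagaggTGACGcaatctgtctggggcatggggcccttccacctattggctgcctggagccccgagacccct
Isl1: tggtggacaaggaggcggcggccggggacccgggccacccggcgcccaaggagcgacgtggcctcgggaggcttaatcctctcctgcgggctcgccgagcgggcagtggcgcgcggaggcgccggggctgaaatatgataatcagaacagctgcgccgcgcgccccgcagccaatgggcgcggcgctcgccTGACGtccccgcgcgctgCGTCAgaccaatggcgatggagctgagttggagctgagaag

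A promoter was found in RefSeq for 8 of the 9 members. TGACG was present in 5 of the 8, beside 17.8% of all 32851 promoter windows of the same length. It began 171 bases before the start of Chat, 49 before that of Slc18a3, 65 before that of Calca, 66 before that of Tbx20, and 59 and 41 before that of Isl1. The full element TGACGTCA, which contains TGACG, was in 0 of 8 (1.55% of all windows), and TAATTA, a core recognised by many homeodomain proteins, was in 0 of 8 (4.84%). GGGCGG was in 4 of 8 (32.7%), namely Ache, Tbx20, Slc18a3 and Prph, CANNTG was in 6 of 8 (66.2%), and TATAAA was in 2 of 8 (12.4%). TATAAA began 31 bases before the start of Prph and 187 before that of Slc5a7. Both strands were searched. These matches describe the letters of the windows only.

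Values follow in the order of replicates 1, 2 and 3 for each genotype. Chat was at 6.65, 7.67 and 6.47 CPM in WT, against 8.38, 5.96 and 9.28 CPM under the Rag1-/- label. The highest and the lowest library both carried the Rag1-/- label, and the WT libraries lay between them. The mean was 6.93 ± 0.646 CPM in WT, against 7.87 ± 1.72 CPM under the Rag1-/- label (SD, n = 3). The log2 fold change was 0.16 (standard error 0.16, 95% interval -0.20 to 0.52, adjusted p = 0.710 by limma-trend).

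Slc18a3 was at 11.7, 15.6 and 12.9 CPM in WT, against 18.2, 11.6 and 21.3 CPM under the Rag1-/- label. Replicates 1 and 3 with this label exceeded every WT library, and replicate 2 was just under WT replicate 1. Its log2 fold change was 0.31 (standard error 0.20, 95% interval -0.16 to 0.77, adjusted p = 0.570 by limma-trend). Slc5a7 was at 17.8, 21.7 and 16.6 CPM in WT, against 21.4, 17.3 and 29.2 CPM under the Rag1-/- label, so that replicate 3 with this label was the highest by a wide margin and the others lay within the WT range. Its log2 fold change was 0.25 (standard error 0.18, 95% interval -0.15 to 0.65, adjusted p = 0.596 by limma-trend).

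Replicate 2 labelled Rag1-/- decided whether these 3 genes passed the unadjusted threshold. Without it, the log2 fold change was 0.35 for Chat, 0.56 for Slc18a3 and 0.42 for Slc5a7, while the adjusted limma-trend p values were 0.471, 0.457 and 0.476. In that fit 3 of 9 members had p of at most 0.05, all higher in the label Rag1-/-, and 10.3% of tested genes did, or 2.05% of tested genes in this direction. Without replicate 3 labelled Rag1-/-, the highest library for all 3, the log2 fold change was 0.03 for Chat, 0.13 for Slc18a3 and 0.05 for Slc5a7. No single library or setting gave a member an adjusted p under 0.05: over 17 alternatives, the adjusted p ranged from 0.471 to 0.960 for Chat, from 0.456 to 0.846 for Slc18a3 and from 0.449 to 0.922 for Slc5a7.

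Within a library, the ratio of Slc18a3 to Chat does not depend on how the library was scaled. It was 1.76, 2.04 and 2.00 in the WT libraries and 2.17, 1.95 and 2.30 under the Rag1-/- label, and the genotypes overlapped (exact two-sided permutation p = 0.3). The ratio of Slc5a7 to Chat lay between 2.55 and 3.15 over all 6 libraries (exact permutation p = 0.5). The ratio of Ache to Chat lay between 15.7 and 22.0 and was lowest in replicate 3 labelled Rag1-/- (exact permutation p = 0.3). With the ratio of Calca to Calcb, 4 ratios were compared, and the Benjamini-Hochberg adjusted p lay between 0.6 and 0.7.

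Ache (chromosome 5, 137288254 to 137294466, plus strand) encodes acetylcholinesterase, which ends the signal by hydrolysing acetylcholine, and it is expressed by many neurons that do not release acetylcholine. It was at 139, 152 and 143 CPM in WT, against 150.3, 126 and 146 CPM under the Rag1-/- label. Its libraries differed by 1.20-fold at most, the narrowest spread among the 9 genes. The log2 fold change was -0.04 (standard error 0.07, 95% interval -0.20 to 0.11, adjusted p = 0.835 by limma-trend), and it was 0.0041 after median-of-ratios rescaling and 0.03 without replicate 2 labelled Rag1-/-, so that Ache has no settled direction.

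Prph (chromosome 15, 99055174 to 99058978, plus strand) encodes peripherin, an intermediate filament protein of neurons whose axons leave the central nervous system. It was at 8.78, 16.3 and 15.1 CPM in WT, against 17.3, 9.28 and 20.5 CPM under the Rag1-/- label. WT replicate 1 and replicate 2 labelled Rag1-/- were low and the other 4 libraries lay at 15.1 CPM or above, a division that cut across the genotypes. The log2 fold change was 0.20 (standard error 0.31, 95% interval -0.50 to 0.90, adjusted p = 0.819 by limma-trend). It was -0.07 without WT replicate 1, -0.03 without replicate 3 labelled Rag1-/- and 0.54 without replicate 2 with this label.

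Tbx20 (chromosome 9, 24720812 to 24774303, minus strand) encodes a T-box transcription factor of developing branchial and visceral motor neurons. It was near the limit of detection, at 0.307, 0.582 and 0.489 CPM in WT, against 0.838, 0.159 and 0.626 CPM under the Rag1-/- label, which corresponds to between 5 and 29 estimated reads. Replicate 2 labelled Rag1-/- was again the lowest. The log2 fold change of 0.04 had a 95% interval from -1.01 to 1.08 (standard error 0.46, adjusted p = 0.981 by limma-trend), and it was -0.01 with a pseudocount of 0.01. Leaving out WT replicate 1 gave -0.18, and leaving out replicate 1 or 3 labelled Rag1-/- gave -0.34 and -0.15.

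Isl1 (chromosome 13, 116298270 to 116309688, minus strand) encodes a LIM-homeodomain transcription factor that specifies motor neurons. It did not follow the other members. It was at 1.53, 2.02 and 4.63 CPM in WT, against 1.07, 2.12 and 2.28 CPM under the Rag1-/- label. WT replicate 3 was far above the next library, replicate 3 labelled Rag1-/-, whereas it held the lowest Slc5a7 and Calca values of all 6. The log2 fold change was -0.47 (standard error 0.40, 95% interval -1.39 to 0.45, adjusted p = 0.669 by limma-trend), and it was -0.02 without WT replicate 3.

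Pituitary transcripts moved with Isl1 in that library. Of 13 pituitary genes listed, 11 are in the table, and their summed level was 667 CPM in WT replicate 3, 62.3 CPM in WT replicate 2, 7.25 CPM in WT replicate 1 and 5.20 to 9.98 CPM under the Rag1-/- label. Growth hormone (Gh) was at 381 CPM and the melanocortin precursor Pomc at 246 CPM in WT replicate 3, beside at most 43.8 CPM and 3.19 CPM in the other libraries. Fshb was at 0.575 CPM in WT replicate 3 and at the 0.0001 CPM offset in the other 5, and Prl was at or under the floor in 4 libraries. The cerebellar list summed to 832 CPM in WT replicate 3 and to 277 to 435 CPM in the other 5 libraries, and Nkx2-1, a ventral forebrain and hypothalamic transcription factor, was at 5.20 CPM there and at 0.289 to 1.01 CPM elsewhere. The part of these tissues in the Isl1 value was not tested. Of the pituitary list, 4 of 10 tested genes had a limma-trend p of at most 0.05 before adjustment, all lower in the label Rag1-/-, where 9.29% of all tested genes were called lower, and 1 did without WT replicate 3. Of the cerebellar list, 12 of 12 had a fold change below 0 (median -0.37), beside 32.3% of all tested genes above 0, 1 had p of at most 0.05, and the median was 0.30 without WT replicate 3.

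**Figure D2:**
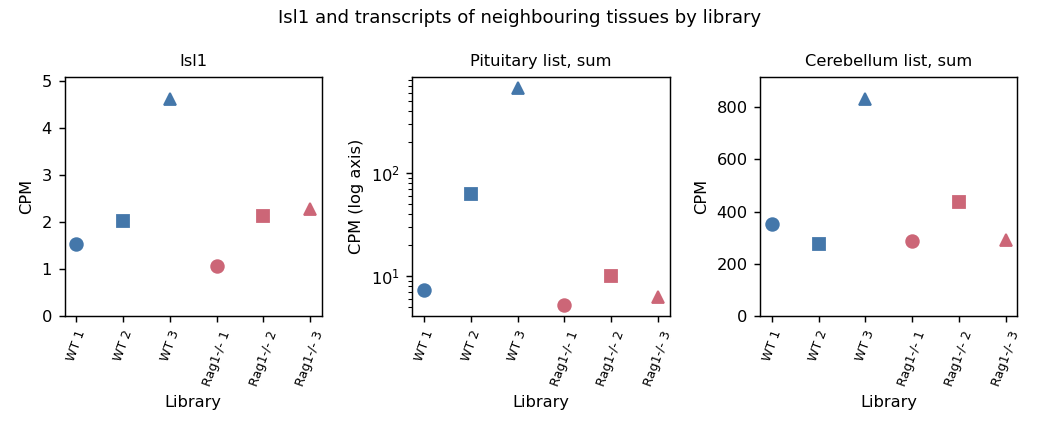
Isl1, the summed CPM of the pituitary list (log axis) and the summed CPM of the cerebellar list in each library, WT in blue and libraries labelled Rag1-/- in red. WT replicate 3 is the highest library for Isl1 (4.63 CPM), for the pituitary list (667 CPM) and for the cerebellar list (832 CPM).

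Among the 4 libraries with low Xist, WT is represented by replicate 3 alone. There the log2 fold change of Isl1 was -1.37 (adjusted p = 0.153 by limma-trend), which restates the high value of that library and is no separate evidence of a difference. The fold changes of the other members in these libraries rest on the same WT library, which was the lowest of all for Slc5a7 and Calca. They are no separate evidence either. Among the other members, Ache (-0.02), Prph (-0.02) and Tbx20 (-0.07) had a negative value.

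Calca and Calcb encode the CGRP peptides. Calca (chromosome 7, 114631478 to 114636357, minus strand) gives either calcitonin or α-CGRP by alternative splicing, which a value per gene does not separate, and Calcb (chromosome 7, 114718643 to 114723365, plus strand), its neighbour at a gap of 82285 bases, gives β-CGRP. The paralogs share an identical run of 61 bases, and 4.33% of the 25-base words of Calcb transcripts occur in Calca transcripts, so that a small share of reads could be assigned to either. Calca was at 5.76, 7.08 and 5.54 CPM in WT, against 6.95, 5.92 and 8.20 CPM under the Rag1-/- label, with the genotypes interleaved. Its log2 fold change was 0.19 (standard error 0.14, 95% interval -0.13 to 0.51, adjusted p = 0.609 by limma-trend).

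Calcb was at 0.355, 0.864 and 0.549 CPM in WT, against 0.643, 0.478 and 1.51 CPM under the Rag1-/- label, between 15 and 53 estimated reads. Its positive log2 fold change of 0.43 (standard error 0.41, 95% interval -0.51 to 1.36, adjusted p = 0.703 by limma-trend) rested on replicate 3 labelled Rag1-/-, without which it was -0.01. The ratio of Calca to Calcb ran from 5.44 in that library to 16.2 in WT replicate 1, and the genotypes overlapped (exact permutation p = 0.7).

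**Figure D3:**
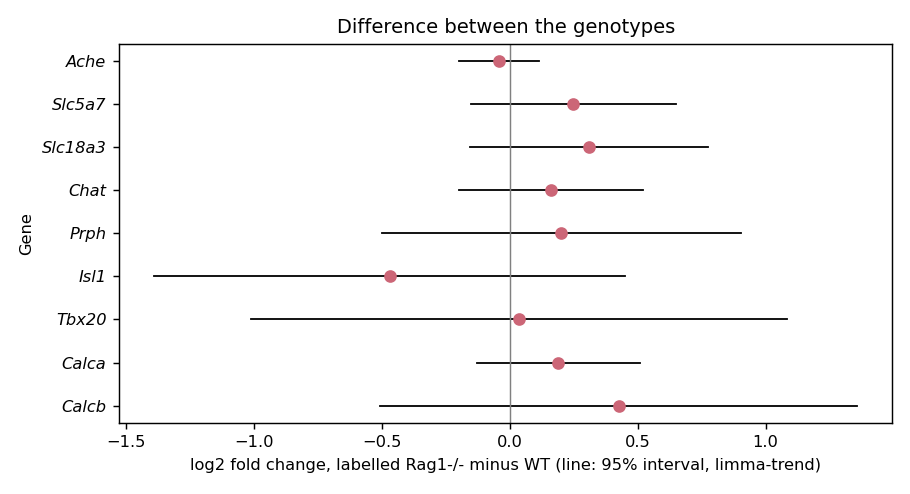
log2 fold change of each gene (libraries labelled Rag1-/- minus WT) with its 95% interval from limma-trend. Every interval includes 0, the narrowest is that of Ache (-0.20 to 0.11) and the widest that of Tbx20 (-1.01 to 1.08).

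Several members had the same libraries high and low. Replicate 3 labelled Rag1-/- was the highest library for 6 of the 9 genes and among the 2 highest for 8, and 8.44% of all tested genes were highest there. Replicate 2 labelled Rag1-/- was the lowest for 4 of the 9 and among the 2 lowest for 7, and 19.3% of all tested genes were lowest there. WT replicate 1 was among the 2 lowest for 7 as well, and WT replicate 2 was among the 2 highest for 4 and among the 2 lowest for 0. The share of all tested genes among the 2 highest or 2 lowest was not computed, so these counts have no background. Since the 9 genes share each library and its composition, these ranks are not independent of each other.

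**Figure D4:**
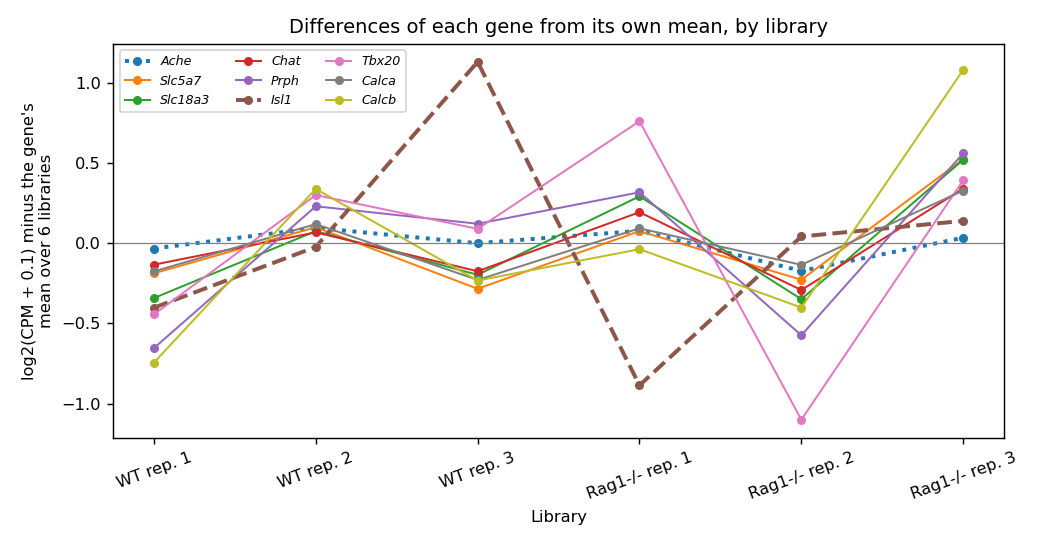
log2(CPM + 0.1) of each gene minus its own mean over the 6 libraries, with lines joining the values of a gene as a visual guide only. Replicate 2 labelled Rag1-/- is below 0 for every gene but Isl1 (dashed) and replicate 3 with this label is above 0 for all 9, Ache (dotted) varies least, and Isl1 is at 1.13 in WT replicate 3 and -0.89 in replicate 1 labelled Rag1-/-.

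Over the 6 libraries, the genes closest to Chat among the 14032 others with a mean of at least 1 CPM, by the root-mean-square distance between log2 values centred on each gene's mean, were Rsad2 (0.0510), Nefm (0.0682) and Sncg (0.0735), where Chat itself deviated from its mean by 0.22. Nefm encodes the medium neurofilament protein of large axons, Sncg encodes gamma-synuclein and Rsad2 encodes viperin, an interferon-induced enzyme. Nefm was at 754, 972 and 729 CPM in WT, against 992, 662 and 1032 CPM under the Rag1-/- label, so that replicate 2 with this label was again the lowest and replicate 3 the highest. Calca was the 8th closest gene to Chat, Slc5a7 the 32nd, Slc18a3 the 69th and Ache the 397th, whereas Prph was 11049th and Isl1 13936th. Because the distance counts the size of deviations as well as their order, a gene that varies more than Chat ranks as distant. Prph had the same 3 highest libraries as Chat, in the same order. The closest genes to Calca were Clgn (0.0444), Mob3b (0.0622) and Slc2a5 (0.0654). Likeness over 6 libraries is a description only.

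The summed level of 12 general neuron genes was lowest in replicate 2 labelled Rag1-/-, at 7003 CPM, and was 7185 to 8020 CPM in the other libraries, and 0 of these 12 genes had p of at most 0.05 (median log2 fold change 0.01), where 11.6% of all tested genes did. Without that library 2 were higher and 1 lower, beside 2.05% and 8.22% of all tested genes. The members of this list did not move together there, since Nefm was lowest in that library (662 CPM) and Map2, a dendritic microtubule protein, highest (697 CPM). The part of this list in the low Chat, Slc18a3 and Prph values of that library was not tested. Of the 15 sensory ganglion genes listed, 14 are in the table and 11 were tested, with 0 at p of at most 0.05, a median log2 fold change of 0.05 and a summed level of 779 to 842 CPM, most of it from Ntrk2, which brain cells also express. The nociceptor channels Scn10a and Trpv1 did not exceed 0.0674 and 0.172 CPM, and P2rx3, a purinergic receptor of sensory neurons, was at 1.87 to 3.38 CPM. Without replicate 2 labelled Rag1-/-, 2 genes of this list were higher and 1 lower at p of at most 0.05, beside the same 2.05% and 8.22% of all tested genes.

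Per kilobase of the longest annotated coding transcript, Ache had the highest level, with a median of 66.0 CPM per kb over the 6 libraries. Prph (8.42), Calca (6.48), Slc18a3 (5.92), Slc5a7 (3.78) and Chat (2.51) followed as medians in CPM per kb, and each overlapped in range with its neighbour in this order. Isl1 (0.824) and Calcb (0.620) were lower and overlapped with each other, and Tbx20 (0.0589) was lowest. The ranges of Ache and Prph, of Chat and Isl1, and of Calcb and Tbx20 were apart. The order depends on the transcript used, since Tbx20 has coding transcripts of 9091 and 1801 bases.

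Among the other motor neuron genes, few differed between the labels before adjustment and none after it. Of 20 listed genes, 1 had a limma-trend p of at most 0.05 before adjustment in the higher direction and 0 in the lower, beside 2.27% and 9.29% of all tested genes, and the median log2 fold change was 0.03. The gene was Phox2a, a homeodomain factor of oculomotor and trochlear motor neurons and of noradrenergic neurons, at 0.380, 0.437 and 0.409 CPM in WT, against 0.906, 0.607 and 0.716 CPM under the Rag1-/- label. The libraries did not overlap, which 3.98% of tested genes showed in this direction, and the log2 fold change was 0.71 (standard error 0.21, adjusted p = 0.340 by limma-trend). Mmp9, a matrix metalloproteinase of fast motor neurons, did not overlap in the lower direction, at 2.16 to 2.69 CPM in WT, against 1.39 to 2.14 CPM under the Rag1-/- label, where 14.4% of tested genes did not overlap. Slc10a4, a vesicular protein of cholinergic and monoaminergic neurons, was at 17.6 to 21.4 CPM in WT, against 21.0 to 25.7 CPM under the Rag1-/- label (log2 fold change 0.19, adjusted p = 0.494). Gfra1, a receptor subunit for the trophic factor GDNF, was at 66.7 to 83.2 CPM in WT, against 74.2 to 79.6 CPM under the Rag1-/- label (adjusted p = 0.717). Tns1, which encodes the focal adhesion protein tensin 1, had a log2 fold change of -0.07 (adjusted p = 0.744). Without either WT replicate 3 or replicate 2 labelled Rag1-/-, 1 gene of this list was higher and 1 lower at p of at most 0.05.

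Acetylcholine receptors were measured as well. Of 16 nicotinic receptor subunit genes listed, 13 are in the table and 12 were tested. Of these 12, 1 had an unadjusted p of at most 0.05, in the lower direction, beside 11.6% of all tested genes and 9.29% in that direction. This was Chrna7, the subunit of the homomeric α7 receptor, which was at 12.6 to 13.7 CPM in WT, against 10.6 to 12.1 CPM under the Rag1-/- label (log2 fold change -0.22, standard error 0.07, adjusted p = 0.372 by limma-trend). The abundant Chrna4 (84.1 to 104 CPM) and Chrnb2 (82.0 to 94.8 CPM), which form the main high-affinity receptor of brain, had log2 fold changes of -0.06 and -0.09 with adjusted p = 0.788 and 0.542. Of 5 muscarinic receptors, 2 had p of at most 0.05, both lower in the label Rag1-/-, where 9.29% of all tested genes were called lower. Chrm5 was at 2.33 to 3.19 CPM in WT, against 1.74 to 2.25 CPM under the Rag1-/- label (log2 fold change -0.43, adjusted p = 0.390), and Chrm3 at 16.1 to 17.6 CPM and 14.8 to 15.8 CPM (log2 fold change -0.15, adjusted p = 0.421). Chrm2, the main autoreceptor of cholinergic neurons, overlapped at 15.8 to 18.9 CPM (adjusted p = 0.703), and 1 of the 5 passed without WT replicate 3, or without replicate 2 labelled Rag1-/-. No overlap in this direction was seen for 14.4% of all tested genes.

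Among 12 genes of acetylcholine supply, breakdown and receptor assembly, 1 had p of at most 0.05, beside 11.6% of all tested genes, and the median log2 fold change was -0.01. Ric3, a chaperone of nicotinic receptors, was at 80.2 to 82.0 CPM in WT, against 74.6 to 78.0 CPM under the Rag1-/- label (log2 fold change -0.10, adjusted p = 0.405 by limma-trend). Slc44a1, a choline transporter of many cell types, had a log2 fold change of 0.12 (adjusted p = 0.487), and Bche, which encodes the related butyrylcholinesterase, of -0.06 (adjusted p = 0.841). Lynx1, a brake on nicotinic receptors, and Acly, which supplies acetyl-CoA, had log2 fold changes of 0.06 and 0.04 (adjusted p = 0.635 and 0.840). Of 9 genes of the CGRP and calcitonin receptor family, 7 were tested and 1 had p of at most 0.05, beside 11.6% of all tested genes and 2.27% in the higher direction. It was Ramp1, the accessory protein that with Calcrl forms the CGRP receptor, at 54.2 to 58.3 CPM in WT, against 58.9 to 64.2 CPM under the Rag1-/- label (log2 fold change 0.16, standard error 0.05, adjusted p = 0.365 by limma-trend). Calcrl itself had a log2 fold change of 0.01 (adjusted p = 0.989), Ramp2 of -0.11 (adjusted p = 0.508) and Ramp3 of 0.07 (adjusted p = 0.922). Without replicate 2 labelled Rag1-/-, 0 of the 12 nicotinic and 0 of the 7 receptor family genes had p of at most 0.05, and the supply and breakdown list had 1 gene higher and 0 lower. Without WT replicate 3, the counts of these 3 lists were as over all 6 libraries.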

How the data were processed

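Total RNA from snap-frozen brainstems of 3 WT and 3 Rag1-/- mice was sequenced on an Illumina HiSeq. Alignment to mm10 was done by the authors with STAR 2.5.3a, and RefSeq gene counts were normalised in Partek Flow. They deposited CPM with an offset of 0.0001. Coordinates are those deposited, with the end 1 base before the deposited stop. For 83.9% to 85.7% of low values a whole number of reads (within 0.1) was recovered, which was too few for a test on counts. Here, log2(CPM + 0.1) of the 16762 genes averaging 0.1 CPM or more was tested with limma-trend (limma 3.58.1, R 4.3.3) with Benjamini-Hochberg adjustment, a fold change that understates low genes. The 1296 other genes were not tested. The fit was checked on simulated data. The set of members, though it used no threshold, and the 14 gene lists were chosen with earlier results of these data known. Besides the members, named genes came from the 2 with the smallest p and the 2 with the highest mean of each list, and the genes closest in pattern to Chat and Calca. Genes named outside this rule (Mmp9, Bche, Calcrl, Fshb, Nkx2-1, Lhx8, Map2, Scn10a and Trpv1) were chosen after their values were seen. The p-values compare independent animals. Transcript lengths came from GENCODE M21 and promoters from RefSeq. Alternatives changed the pseudocount, filter, scaling, variance model, block and libraries, and list counts without WT replicate 3 or replicate 2 labelled Rag1-/- were added after the data were seen.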

Additional observations from a re-analysis of the deposited data

How the results depend on the processing

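Of 151 values of the members under 17 alternatives, 133 kept their direction and their side of the unadjusted threshold of 0.05, 13 reversed and 5 passed it, while no member reached an adjusted p under 0.05 in any. With a library left out, the log2 fold change ranged from 0.0313 to 0.35 for Chat, 0.13 to 0.56 for Slc18a3, 0.0476 to 0.42 for Slc5a7, -0.0901 to 0.0349 for Ache, -0.79 to -0.02 for Isl1, -0.0744 to 0.54 for Prph, -0.335 to 0.595 for Tbx20, 0.07 to 0.31 for Calca and -0.0061 to 0.73 for Calcb, and the number of members with p of at most 0.05 ranged from 0 to 3 (3 without replicate 2 labelled Rag1-/-). Ache was 0.0041 with median-of-ratios rescaling and Tbx20 -0.01 (-0.0135) with pseudocount 0.01. With an added term for Xist over 100 CPM, and in low-Xist libraries only, Prph was -0.0199, Tbx20 -0.0709 and Isl1 -1.37. WT is then represented by replicate 3 alone among low-Xist libraries, and the values under both settings rest on it. The other causes were not tested.

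Over all tested genes, 8 had an adjusted p under 0.05. This became 4 with pseudocount 0.01, with no filter and with a filter at 1 CPM (which leaves Tbx20 and Calcb untested), 5 with quantile normalization, 2 without the limma trend, 0 with ordinary per-gene variance (1772 at an unadjusted p of at most 0.05), 134 with the Xist term, 139 with low-Xist libraries only (both resting on WT replicate 3), and 2 to 24 with a library left out (24 without WT replicate 3). The number with an unadjusted p of at most 0.05 was 1938 (380 higher, 1558 lower), and 1115 to 2028 with a library left out (1115 without replicate 1 labelled Rag1-/-). The share of tested genes higher and lower at this p was 2.27% and 9.29%, and 5.05% and 4.13% after median-of-ratios rescaling, 5.10% and 3.82% after quantile normalization.

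Samples of the same number were not paired by the data (their deviations correlated at 0.0926, -0.220 and -0.0183), and 1 of 6 correlated best with its own number, so the number is only a name. Under the replicate block, 0 members and 1358 of all tested genes had p of at most 0.05, and 3 genes had an adjusted p under 0.05. Depth limits Tbx20 and Calcb, whose lowest libraries hold about 5 and 15 reads.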

Other observations

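Genes of other cholinergic groups and of the surrounding tissue were also followed. Of 10 genes listed for cholinergic neurons of other regions, 2 had a limma-trend p of at most 0.05 before adjustment, Ngfr, the low-affinity neurotrophin receptor (log2 fold change -0.44, adjusted p = 0.402), and Nos1, neuronal nitric oxide synthase (-0.19, adjusted p = 0.412), both lower in the label Rag1-/-, where 9.29% of all tested genes were called lower, and 0 did without WT replicate 3 or without replicate 2 labelled Rag1-/-. Lhx8, a transcription factor of forebrain cholinergic neurons, was at most 0.546 CPM in any library. The forebrain list summed to 82.4 CPM in WT replicate 3 and to 50.9 to 67.7 CPM elsewhere. In this list 1 of 11 genes, Ppp1r1b, was lower at p of at most 0.05, beside the same 9.29% of all tested genes (median -0.14).

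Of the oligodendrocyte genes, 9 of 10 were higher under the Rag1-/- label at a limma-trend p of at most 0.05 before adjustment (7 without WT replicate 3), where 2.27% of all tested genes were called in this direction. Myelin basic protein (Mbp) was at 7193 to 8529 CPM in WT and 9263 to 11199 CPM under the Rag1-/- label, and Mog, a surface protein of myelin, at 293 to 339 CPM in WT, against 369.9 to 388 CPM under the Rag1-/- label, with a log2 fold change of 0.28 (adjusted p = 0.258). No oligodendrocyte gene had an adjusted p under 0.05. Of the astrocyte genes 1 of 10 had p of at most 0.05, beside 11.6% of all tested genes and 2.27% in the higher direction. It was Aqp4, higher in the label Rag1-/- (log2 fold change 0.19, adjusted p = 0.372 by limma-trend, median of the list 0.0073), and 0 of this list passed without WT replicate 3. Of the skeletal muscle genes 1 of 10 had p of at most 0.05, beside the same shares of all tested genes. It was Tnni2, higher in the label Rag1-/- at no more than 0.222 CPM, or 2 to 7 estimated reads (median of the list -0.21). In this list 0 passed without WT replicate 3 or without replicate 2 labelled Rag1-/-, and Acta1 was at 1.72 to 2.72 CPM.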
